A study of Bos taurus with 16 samples.

Results

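Lactoferrin (LTF), BPIFB1 and other transcripts of uterine and mucosal secretions were followed in day 7.5 bovine blastocysts collected from cows on 3 oilseed diets. The set named 9 genes, of which 8 had a probe: LTF, BPIFB1, LCN2, PIGR, OVGP1, SCGB1A1, MUC1 and SPP1. They were covered by 11 of 43794 probes, or 8 of 15216 genes with a symbol, while SERPINA14 matched no named probe and was not analysed here. LTF and BPIFB1 were chosen by their low ratios in replicate 3 of both diets, so those ratios are given as a description with no test. The others were chosen as secreted or surface products of the reproductive tract that a flushed embryo sample may carry.

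All embryos came from non-lactating Holstein cows that had eaten their diet for at least 35 days, were superovulated with follicle-stimulating hormone and were inseminated with semen of 1 sire. The control diet held rolled canola seed (CAN, rich in oleic acid, 8 cows), and the compared diets held rolled flax seed (FLX, rich in α-linolenic acid, 8 cows) or rolled sunflower seed (SUN, rich in linoleic acid, 7 cows). Blastocysts were recovered without surgery, embryos of similar stage were pooled, and FLX or SUN RNA was hybridised together with CAN RNA on 2-colour arrays. Each diet had 4 replicates, and each replicate was hybridised a second time with the dyes swapped, which made 16 arrays. The CAN samples carried the same numbers 1 to 4 in both comparisons, so FLX and SUN replicates of 1 number share a CAN label. The labels used here do not tie replicates to cows, so the spread between replicates is that between pools.

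Every value below is a log2 ratio of the diet sample over its CAN sample, averaged over the 2 dye orientations. Cy5 over Cy3 was assumed as the direction of the ratio, which is likely but not stated, and with the other direction every sign turns. Only ratios were used here, without spot intensities. A ratio near 0 therefore does not tell whether a transcript was present at equal levels or not detected, and blastocyst identity could not be checked from levels of marker genes. SUN replicate 3 stood apart: over the array its ratios correlated with those of SUN replicates 1, 2 and 4 at −0.244, −0.266 and −0.244, while these 3 correlated with one another at 0.193 to 0.30. Between FLX replicates the range was −0.264 to 0.0482. Probes are not independent, so these coefficients are descriptions.

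The uterine lumen and the oviduct bathe the early embryo in fluid secreted by their epithelia. Part of this fluid defends the mucosa: lactoferrin and lipocalin 2 withhold iron from bacteria, proteins of the BPI fold family such as BPIFB1 are secreted onto mucosal surfaces, and the polymeric immunoglobulin receptor PIGR carries immunoglobulin A across the epithelium. Other members are oviductin (OVGP1), the main glycoprotein of oviduct fluid, uteroglobin (SCGB1A1), the mucin MUC1 of the apical epithelial surface, and osteopontin (SPP1), a ligand of integrins in the uterine lumen. Lactoferrin and lipocalin 2 are also stored in granules of neutrophils.

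LTF was far below CAN in replicate 3 of both diets and close to CAN in the other replicates. In FLX its log2 ratio was −0.14, −0.088, −2.21 and −0.048 in replicates 1 to 4. In SUN it was 0.25, −0.18, −2.68 and −0.26. Replicate 3 was thus 4.64-fold lower than its CAN sample in FLX and 6.39-fold lower in SUN, whereas the other 6 values lay between −0.26 and 0.25. The low value was present on both arrays of each pair: −2.25 with the FLX sample in Cy5 and −2.18 with it in Cy3, and −2.54 and −2.81 for SUN. Over all probes and replicates, the arrays of a dye pair differed by a median of 0.199 log2 units and by 0.691 at the 95th percentile. Among all 43794 probes, the LTF probe had rank 4 from the lowest in FLX replicate 3 and rank 6 in SUN replicate 3.

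BPIFB1, the other gene chosen by its replicate 3 ratios, was low there in both diets. Its log2 ratios in FLX were 0.33, 0.018, −1.93 and −0.044, and in SUN 0.25, 0.37, −2.38 and 0.18. Only replicate 3 was low, by 3.81-fold in FLX and 5.22-fold in SUN, and the other 6 values lay at or above −0.044. The arrays of the dye pairs gave −1.89 and −1.97 in FLX replicate 3 and −2.10 and −2.67 in SUN replicate 3. The probe ranked 12 and 13 from the lowest among all probes in these replicates.

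**Figure D1:**
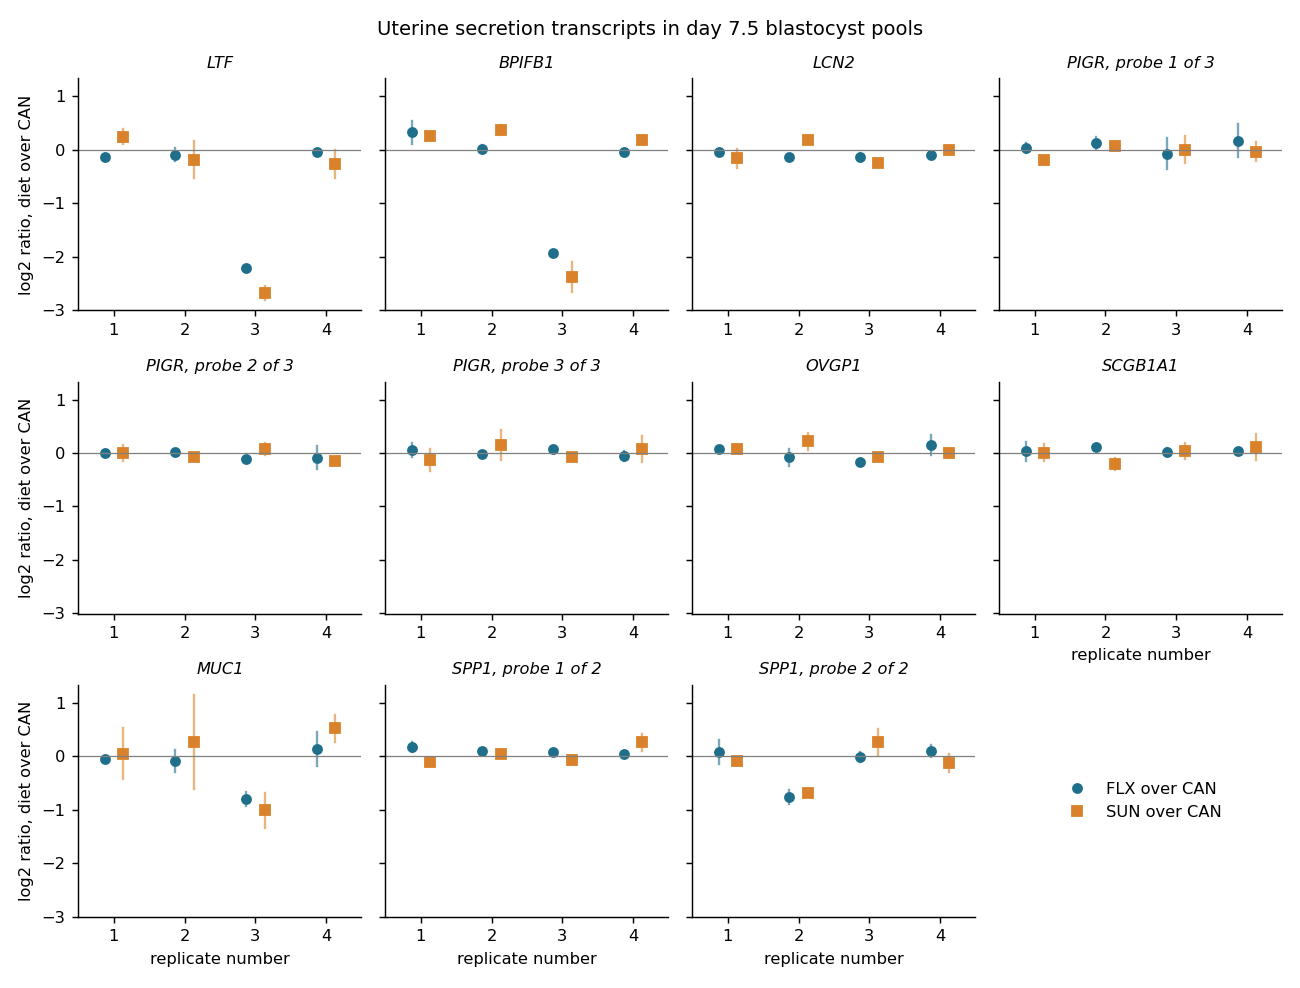
Log2 ratio of the diet sample over its CAN sample (vertical axis) by replicate number (horizontal axis) for the 11 probes of 8 genes; points are means of a dye pair, FLX circles and SUN squares, and vertical lines join the 2 arrays of the pair. LTF and BPIFB1 lie between −1.93 and −2.68 in replicate 3 of both diets, MUC1 at −0.80 and −1.01, and the second SPP1 probe is lowest in replicate 2.

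MUC1 was not chosen for its ratios, although earlier results of these data were known when the members were listed. It was also lowest in replicate 3, at a smaller size. Its values were −0.060, −0.083, −0.80 and 0.14 in FLX, and 0.047, 0.26, −1.01 and 0.52 in SUN. Replicate 3 was 1.74-fold and 2.01-fold below CAN, in ranks 445 and 269 from the lowest of all probes. The arrays of MUC1 dye pairs agreed less well than those of LTF, with 1.14 and −0.61 in SUN replicate 2 and −0.68 and −1.34 in SUN replicate 3. In FLX replicate 3 the pair gave −0.67 and −0.92.

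LTF, BPIFB1 and MUC1 were the 3 of 8 measured genes that lay at least 1.5-fold below CAN in replicate 3 of FLX, where 2.45% of all genes did. The same 3 of 8 did so in replicate 3 of SUN, again with 2.45% of all genes. For LTF and BPIFB1 this is the property that chose them, and the 1.5-fold rule was set after values were seen. No member was 1.5-fold higher in replicate 3, where 1.05% of all genes in FLX and 1.72% in SUN were. None of the 8 genes, taken as the mean of their probes, reached 1.5-fold in either direction in replicates 1, 2 or 4 of either diet, although 1 SPP1 probe did. In FLX replicates 1, 2 and 4, 1.91%, 1.85% and 0.874% of all genes were that much lower and 3.04%, 2.56% and 0.808% that much higher. In SUN the shares were 1.32%, 3.42% and 0.644% lower and 1.89%, 5.38% and 1.01% higher. The median of the 8 genes was −0.15 in FLX replicate 3 and −0.16 in SUN replicate 3, against −0.0059 and 0.0021 for all genes. It lay between −0.080 and 0.12 in the other 6 replicates. Because LTF and BPIFB1 are among the 8 genes and were chosen by these replicate 3 values, nothing is read from the low medians.

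**Figure D2:**
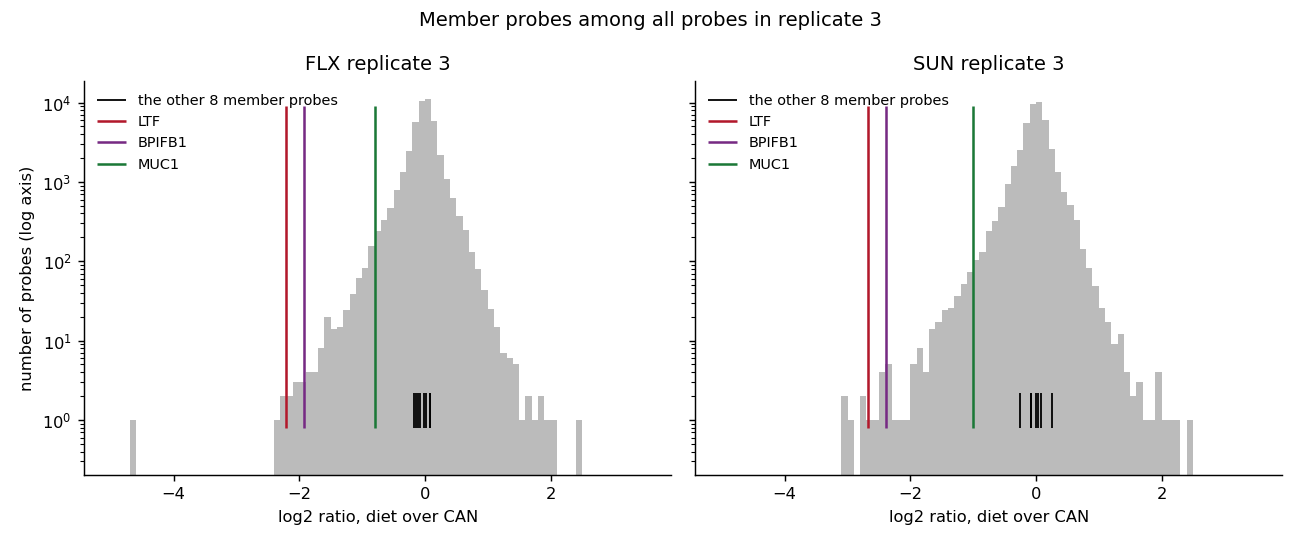
Histogram of the log2 ratios of all 43794 probes (horizontal axis) in replicate 3 of FLX (left) and SUN (right), with the number of probes on a log axis. Tall coloured lines mark LTF, BPIFB1 and MUC1, which sit in the lower tail, and short black lines mark the other 8 member probes, which lie between −0.25 and 0.26.

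Because FLX replicate 3 and SUN replicate 3 were both set against a sample named CAN replicate 3, a high level in that CAN sample and low levels in both diet samples cannot be told apart from these ratios. Between the diets, the replicate 3 ratios differed by 0.46 for LTF, 0.45 for BPIFB1 and 0.21 for MUC1 (FLX minus SUN). For LTF and BPIFB1, choosing genes low in both diets favours like values, so nothing is read from these differences. In bulk pools, fewer cells of a type and less RNA per cell cannot be told apart either.

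LCN2, which shares bacterial iron capture and neutrophil granules with LTF, showed no low value of that size. Its log2 ratios were −0.048, −0.13, −0.13 and −0.088 in FLX and −0.16, 0.18, −0.25 and −0.0037 in SUN. SUN replicate 3 was the lowest of its 8 values, at 1.19-fold below CAN. Replicate 3 was also its lowest value in FLX, by a small margin (−0.135 against −0.129 in replicate 2). All 4 FLX values were negative, with a mean of −0.10 ± 0.040 (SD, n = 4), and limma gave an adjusted p of 1.00.

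PIGR stayed near CAN throughout on 3 probes. The mean of these probes was 0.029, 0.040, −0.036 and 0.010 in FLX and −0.10, 0.051, −0.00030 and −0.036 in SUN. Its 24 single probe values lay between −0.19 and 0.17, and in replicate 3 the probes did not share a sign in either diet. JCHAIN, the joining chain of the immunoglobulin polymers that PIGR binds, stood at −0.081, −0.084, −0.46 and −0.33 in SUN and is described with the defence genes below.

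Oviduct and uterine secretory products were similarly flat. OVGP1 had 0.067, −0.078, −0.17 and 0.14 in FLX and 0.083, 0.22, −0.072 and 0.0054 in SUN, so that replicate 3 was its lowest value in each diet, at 1.13-fold and 1.05-fold below CAN. SCGB1A1 had 0.031, 0.11, 0.018 and 0.031 in FLX and 0.0086, −0.20, 0.039 and 0.12 in SUN, with replicate 3 inside the range of the others. Neither gene separated the diets from CAN, and their replicates lay on both sides of 0 except for SCGB1A1 in FLX.

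SPP1 was measured by 2 probes that disagreed. The probe EMBV3_13836 had 0.18, 0.096, 0.083 and 0.035 in FLX and −0.10, 0.040, −0.074 and 0.26 in SUN. The probe EMBV3_21535 had 0.080, −0.75, −0.0082 and 0.091 in FLX and −0.091, −0.68, 0.26 and −0.13 in SUN. On the latter, replicate 2 was low in both diets, 1.69-fold and 1.61-fold below CAN, with both dye orientations negative (−0.62 and −0.89 in FLX, −0.67 and −0.70 in SUN). Replicate 2 shares a CAN label in the same way as replicate 3, and the diets differed there by −0.071. The deposited values do not tell which SPP1 sequence each probe detects.

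Spread between replicates set LTF and BPIFB1 apart from the remaining members. LTF had an SD of 1.06 in FLX and 1.32 in SUN, BPIFB1 1.03 and 1.33, and MUC1 0.41 and 0.67, against a median SD over all probes of 0.132 in FLX and 0.154 in SUN. Among all probes ordered from the largest SD, LTF had rank 149 in FLX and 139 in SUN and BPIFB1 rank 179 and 138, as follows from the rule that chose them. Without replicate 3 the SD of LTF was 0.046 in FLX and 0.27 in SUN, and that of BPIFB1 0.20 and 0.099 (n = 3). Across replicates, LCN2, OVGP1, SCGB1A1, the 3 PIGR probes and the first SPP1 probe had SDs of 0.040 to 0.19. The second SPP1 probe, EMBV3_21535, had 0.41 in FLX and 0.39 in SUN, about that of MUC1 in FLX.

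The FLX vs CAN and SUN vs CAN comparisons asked whether the kind of oilseed went with different transcript levels in the embryos. Taken over 4 replicates, the mean log2 ratio of LTF was −0.62 ± 1.06 in FLX and −0.72 ± 1.32 in SUN, and that of BPIFB1 −0.41 ± 1.03 and −0.40 ± 1.33 (mean ± SD), each mean being smaller than its SD. Without replicate 3 the means were −0.092 and −0.066 for LTF and 0.10 and 0.27 for BPIFB1. These values from replicates 1, 2 and 4 did not choose the genes and were tested in a limma fit over all probes. LTF had an adjusted p of 1.00 in FLX, with a 95% interval of −0.34 to 0.16, and of 0.845 in SUN, with an interval of −0.31 to 0.18. BPIFB1 had an adjusted p of 1.00 in FLX (−0.11 to 0.31) and 0.391 in SUN (0.055 to 0.48), where all 3 values were positive.

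The mean of MUC1 also depended on replicate 3. Its mean was −0.20 ± 0.41 in FLX and −0.044 ± 0.67 in SUN, with limma adjusted p of 1.00 and 0.977 and intervals of −0.75 to 0.35 and −0.59 to 0.50. Leaving out replicate 3 of both diets gave −0.0018 in FLX and turned the SUN mean to 0.28 (adjusted p = 0.416). Of the 11 member probes, 2 had an unadjusted p under 0.05 in SUN without replicate 3, BPIFB1 and MUC1, where 10.8% of all probes did, and 0 did in FLX, where 3.67% of all probes did.

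With all replicates, none of the 9 probes of the 6 other measured genes (all but LTF and BPIFB1) passed limma at an adjusted p of 0.05 in FLX or SUN, and none had an unadjusted p under 0.05. Over the whole array 0% of probes passed the adjusted threshold in either diet, and 2.91% in FLX and 6.46% in SUN had an unadjusted p under 0.05. Standard errors of these 9 means ran from 0.0512 to 0.239. The intervals were narrow for the flat genes: −0.26 to 0.059 in FLX and −0.22 to 0.10 in SUN for LCN2, −0.17 to 0.15 and −0.097 to 0.22 for OVGP1, and −0.084 to 0.18 and −0.14 to 0.12 for SCGB1A1. For SPP1 the probe EMBV3_21535 had −0.15 ± 0.41 and −0.16 ± 0.39, and the probe EMBV3_13836 had 0.098 ± 0.060 and 0.031 ± 0.16.

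The FLX vs SUN comparison asked whether the ratios over CAN differed between the diets. The mean difference was 0.096 for LTF, −0.0097 for BPIFB1 and −0.16 for MUC1 (FLX minus SUN), where the values of LTF and BPIFB1 contain the replicate 3 ratios that chose them and are given with no test. The 9 probes of the other 6 genes had a limma adjusted p of 1.00, with 0% of all probes past the threshold and 2.17% at an unadjusted p under 0.05. Taken as differences within replicate numbers, the 95% interval for MUC1 was −0.43 to 0.12, and the adjusted p ran from 0.896 to 0.994 over the 9 probes. Without replicate 3, LTF and BPIFB1 could be tested too. The differences were then −0.025 for LTF (95% interval −0.37 to 0.32), −0.16 for BPIFB1 (−0.46 to 0.13) and −0.28 for MUC1 (−0.62 to 0.059), and 0 of the 11 probes had an unadjusted p under 0.05, against 3.23% of all probes.

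In replicate 3, other antimicrobial and mucosal defence genes did not fall as low as LTF and BPIFB1. Of 42 listed, 37 were measured, with 0 at least 1.5-fold below CAN in FLX replicate 3 and 1 in SUN replicate 3, BPIFA1 at −0.84, which stood at 0.22 in FLX replicate 3 and at 1.02 in SUN replicate 1. Smaller dips in replicate 3 of FLX and SUN were seen for TFF3, at −0.54 and −0.32, and PI3, at −0.45 and −0.50. Both genes lay between −0.091 and 0.31 in the other replicates. LPO went the other way in replicate 3, at 0.46 and 0.49. The median of the list in replicate 3 was 0.038 in FLX and 0.0015 in SUN. Over all replicates it was 0.013 in FLX and 0.0010 in SUN, against 0.0011 and 0.0025 for all genes. In FLX 0 members had an unadjusted p under 0.05, where 1.67% of all genes were positive and 1.49% negative at that threshold. CATHL2, a cathelicidin, AGR2, a disulfide isomerase of mucus-secreting cells, and the lysozyme gene LYZ1 had the smallest p, at 0.10 ± 0.091, −0.090 ± 0.080 and 0.26 ± 0.36.

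In SUN, 3 members of the defence list were negative at an unadjusted p under 0.05 and 0 were positive, where 2.85% and 3.34% of all genes were. They were JCHAIN at −0.24 ± 0.19, and BPIFA2A and BPIFB2, relatives of BPIFB1, at −0.13 ± 0.073 and −0.11 ± 0.091. Each was negative in 4 of 4 replicates, and none passed limma over all genes (adjusted p = 0.799).

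Neutrophil granule genes also stayed near CAN in replicate 3. All 18 measured of 22 listed lay between −0.28 and 0.28 in FLX replicate 3 and between −0.22 and 0.18 in SUN replicate 3, with medians of −0.013 and 0.033. The calprotectin subunits S100A8 and S100A9 stood at −0.018 and 0.059 in FLX replicate 3 and at 0.072 and 0.0096 in SUN replicate 3. Cathelicidin CAMP had −0.17 and 0.077, myeloperoxidase (MPO) 0.013 and −0.036, neutrophil elastase (ELANE) −0.11 and −0.071, and MMP9, a gelatinase, 0.052 and 0.076. Lysozyme (LYZ) had −0.28 and 0.18, OLFM4 of specific granules 0.28 and −0.22, and the surface marker CD177 −0.0085 and 0.17. The peptidoglycan recognition protein gene PGLYRP1 had 0.11 and 0.035, S100A12 0.11 and 0.13, CATHL4 −0.087 and −0.14, and CHI3L1 −0.11 and −0.10. The values were −0.072 and 0.047 for CRISP3, −0.28 and −0.053 for ORM1, −0.027 and 0.014 for haptoglobin (HP), 0.043 and 0.031 for arginase (ARG1), and 0.083 and 0.11 for TCN1, a vitamin B12 binder. Over all SUN replicates CD177 was positive in 4 of 4 (0.19 ± 0.075, limma adjusted p = 0.799). It was the 1 member under an unadjusted p of 0.05 in SUN, where 3.34% of all genes were positive and 2.85% negative at that threshold, and there were 0 in FLX.

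Some genes of endometrial epithelium and histotroph, the nutritive uterine secretion, were low in replicate 3. Of 37 measured genes, 6 were at least 1.5-fold below CAN in FLX replicate 3 and 3 in SUN replicate 3, against 2.45% of all genes in each. The 6 in FLX were the protease inhibitors TIMP2 at −1.46 and TIMP1 at −0.65, the aminopeptidase ANPEP at −0.77, the protease cathepsin B (CTSB) at −0.76, transglutaminase TGM2 at −0.64 and LGALS3BP at −0.60. In SUN they were TIMP1 at −0.73, TGM2 at −0.68 and CTSB at −0.65. These genes were picked out after their values were seen, and most are transcribed in many cell types. In replicate 3, 1 gene of the list was at least 1.5-fold higher in each diet, EPHX3 at 0.63 in FLX and FABP3 at 0.62 in SUN. Low values were not particular to replicate 3. In FLX replicate 1, IGFBP3 stood at −0.84, EPHX3 at −0.74, TIMP1 at −0.64, CST3 at −0.63 and SERPINB2 at −0.59, where 1.91% of all genes were 1.5-fold lower. The mucins MUC4 and MUC16 stood at −0.14 and 0.062 in FLX replicate 3 and at 0.15 and 0.15 in SUN replicate 3. In replicate 3 of FLX and SUN, MUC15 had 0.050 and 0.049, and MUC20 had −0.46 and −0.53. MUC20 was thus low there like MUC1, and lay between 0.022 and 0.52 in the other replicates. PAEP, the milk protein β-lactoglobulin, stood at −0.060 and −0.039, and the gland regulator FOXA2 at −0.29 and −0.20.

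Over all replicates, this list had a median of −0.0085 in FLX and 0.039 in SUN, and 0 members had an unadjusted p under 0.05. Its smallest p values belonged to IGFBP3, which binds insulin-like growth factors, at −0.35 ± 0.47, the protease inhibitor CST3 at −0.24 ± 0.32 and ANPEP at −0.47 ± 0.50 in FLX, and to the retinol carrier RBP4 at −0.20 ± 0.059, the protease CTSC at 0.25 ± 0.44 and MSX1, a homeobox factor, at −0.10 ± 0.13 in SUN.

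Several markers of the embryo itself were low in replicate 3 as well. Of 23 measured blastocyst lineage genes, 4 were at least 1.5-fold below CAN in FLX replicate 3 and 3 in SUN replicate 3, against 2.45% of all genes in each. The trophoblast product TKDP1 stood at −1.57 and −2.95 and the keratin KRT19 at −1.07 and −2.46 in replicate 3 of FLX and SUN. NANOG, a pluripotency factor, had −1.11 and −0.30, PAG2, a placental glycoprotein, −0.77 and 0.16, and the prostaglandin synthase PTGS2 −0.55 and −0.997. Unlike LTF and BPIFB1, these genes also departed from CAN in other replicates: KRT19 stood at −2.16 in FLX replicate 1 and 3.95 in SUN replicate 2, and NANOG at 2.63 in FLX replicate 2 and 5.34 in SUN replicate 2. Other lineage genes went either way in replicate 3 of FLX and SUN. Below CAN lay KRT18 at −0.53 and −0.43, CDX2 at −0.46 and −0.41 and ELF5 at −0.44 and −0.44. GATA2 had −0.26 and −0.30, and TFAP2A −0.20 and −0.57. Above CAN lay POU5F1 at 0.26 and 0.45, TFAP2C at 0.093 and 0.51 and KRT8 at 0.014 and 0.085. In replicate 3, 0 genes of the list were 1.5-fold higher in either diet. The median of the list was −0.11 in FLX replicate 3 and −0.17 in SUN replicate 3, and −0.040 to 0.44 elsewhere. The part of these embryo genes in the low LTF and BPIFB1 ratios was not tested.

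**Figure D3:**
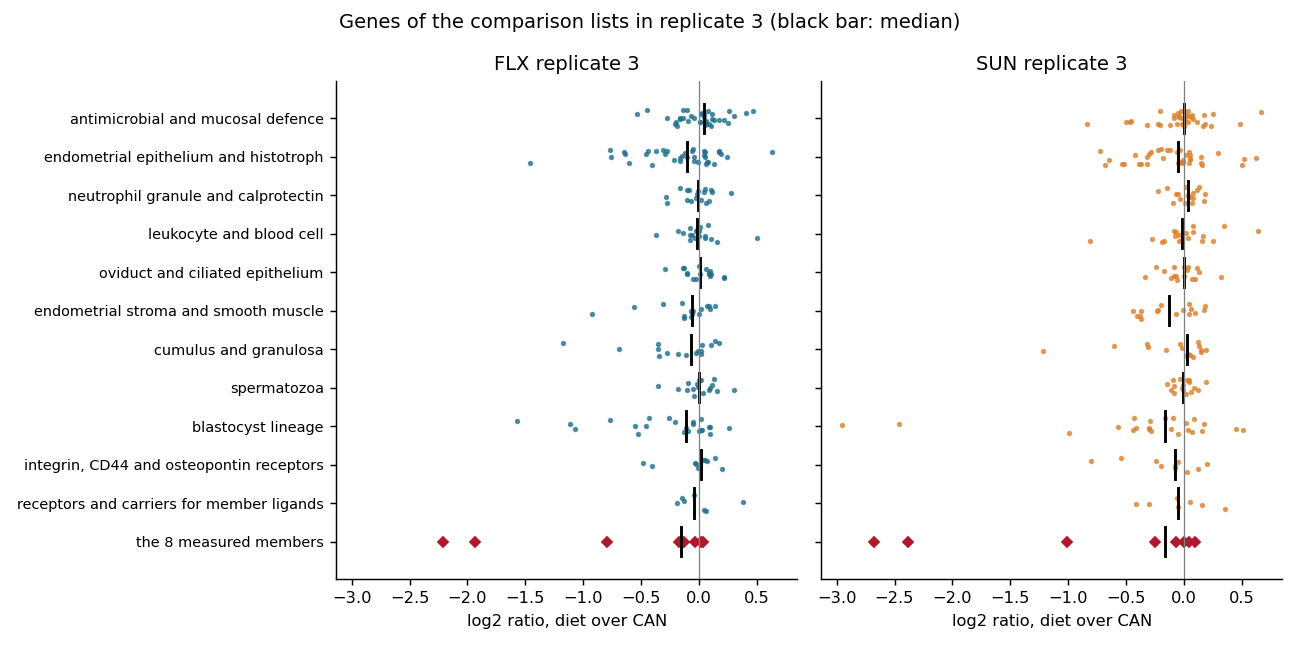
Log2 ratios (horizontal axis) in replicate 3 of FLX (left) and SUN (right) for the measured genes of 11 comparison lists, 1 point per gene, and for the 8 measured members (diamonds); black bars are medians. LTF and BPIFB1 lie left of every neutrophil, leukocyte, oviduct and spermatozoa gene, and 2 blastocyst lineage genes, TKDP1 and KRT19, reach −2.95 and −2.46 in SUN.

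Lists of other cells that a flushed sample may hold had replicate 3 medians between −0.13 and 0.029, although single genes were lower. The medians were −0.018 in FLX and −0.022 in SUN for 19 leukocyte and blood cell genes, 0.0067 and −0.0038 for 17 oviduct and ciliated cell genes, and −0.00028 and −0.0059 for 17 spermatozoa genes. The 16 genes of endometrial stroma and smooth muscle had −0.062 and −0.13, and the 16 genes of cumulus and granulosa cells −0.070 and 0.029. Across all 8 replicates, list medians ran from −0.076 to 0.051 for leukocytes, −0.042 to 0.039 for the oviduct, −0.13 to 0.081 for the stroma, −0.070 to 0.091 for cumulus cells and −0.031 to 0.024 for spermatozoa. In replicate 3, 0 of the 17 oviduct and 0 of the 17 spermatozoa genes were 1.5-fold below CAN in either diet. Leukocyte genes gave 0 in FLX and 1 in SUN, the stroma 1 and 0, and cumulus cells 2 and 2 of 16, against 2.45% of all genes in each diet. In the cumulus list CYP11A1, the side-chain cleavage enzyme that starts steroid synthesis, was low in replicate 3 of both diets, at −1.17 and −1.22, and lay between −0.24 and 0.89 in the other replicates. The second gene was INHBA, an activin subunit, at −0.69 in FLX replicate 3, and STAR, which moves cholesterol into mitochondria, at −0.60 in SUN replicate 3. CD68 of the leukocyte list stood at −0.81 in SUN and the collagen gene COL1A2 of the stroma list at −0.92 in FLX. These genes were named after their values were seen, and their part in the low LTF and BPIFB1 ratios was not tested.

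In these lists and among the blastocyst genes, up to 3 genes per list and diet with an unadjusted p under 0.05 are named here. None passed limma over all genes (adjusted p of 1.00 in FLX and 0.799 or more in SUN). In FLX 1 of 19 leukocyte and 1 of 16 stroma genes were under 0.05, where 1.67% of all genes were positive and 1.49% negative. In SUN 1 of 19 leukocyte, 1 of 16 cumulus and 2 of 23 blastocyst genes were positive. Of 17 spermatozoa genes, 2 were positive and 2 negative in SUN, where 3.34% and 2.85% of all genes were. In FLX the stroma gene COL1A2, a collagen chain, stood at −0.64 ± 0.21 with all 4 replicates negative, and FCER1G, a signalling chain of leukocyte receptors, at −0.10 ± 0.066. In SUN the macrophage receptor CD163 stood at 0.15 ± 0.12, FSHR, the receptor of follicle-stimulating hormone, at 0.22 ± 0.17, and the sperm protamines PRM1 and PRM2 at −0.13 ± 0.066 and −0.14 ± 0.11, with the sperm transition protein TNP1 at 0.52 ± 0.53. PAG2 of the blastocyst list had 0.85 ± 0.63 and ATP1B3, a sodium pump subunit, 0.23 ± 0.26 in SUN.

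Receptors for SPP1, and receptors and carriers for lactoferrin, lipocalin and iron, were also measured. Of 10 integrin and CD44 genes, 0 had an unadjusted p under 0.05 in FLX, and 1 in SUN, the integrin subunit ITGA5 at −0.54 ± 0.33 (limma adjusted p = 0.799), which stood at −0.33 ± 0.52 in FLX. Among all genes, 1.67% were positive and 1.49% negative at that threshold in FLX, and 3.34% and 2.85% in SUN. Among 7 measured receptors and carriers for lactoferrin, lipocalin and iron, 0 had an unadjusted p under 0.05 in either diet. Of these 7, 6 had a mean below CAN in FLX and 5 in SUN, where 7489 and 7460 of 15216 genes did. Their medians were −0.042 and −0.11, against 0.0011 and 0.0025 for all genes.

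Genes were ordered by how closely their 8 replicate values followed LTF or BPIFB1. Because both were chosen for low values in replicate 3 of both diets, their own correlation (r = 0.981, rank 3 among 15215 other genes in each direction) follows from the choice and is no finding. Over the 6 values without replicate 3 it was −0.073. The other genes most like LTF were CPD, a carboxypeptidase of the secretory pathway (0.992), PPP1R15A, a phosphatase regulator of the stress response (0.982), the lipid-binding protein gene OSBPL9 (0.976) and SYTL2, which acts in vesicle transport (0.973). Those most like BPIFB1 were JPT1 (0.991), the mitochondrial glycerol phosphate dehydrogenase GPD2 (0.983), VAC14 (0.977), a scaffold of phosphoinositide metabolism, and VSIG10 (0.972). MUC1 correlated with LTF at 0.896 and with BPIFB1 at 0.927, OVGP1 at 0.671 and 0.706, LCN2 at 0.50 and 0.626, PIGR at 0.0389 and 0.121, SCGB1A1 at −0.0663 and −0.146, and SPP1 at −0.378 and −0.376.

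Several of these correlations rested on replicate 3, and all describe 8 values that share 4 CAN labels. Without it, over 6 values, LTF and MUC1 correlated at −0.495 and BPIFB1 and MUC1 at 0.116. CPD, PPP1R15A, OSBPL9 and SYTL2 had 0.87, 0.84, 0.742 and 0.635 with LTF. JPT1, GPD2, VAC14 and VSIG10 had 0.914, 0.384, 0.642 and 0.976 with BPIFB1. These genes were chosen by their correlation over 8 values that include these 6, so nothing is read from these coefficients. A correlation over 0.9 with LTF was reached by 112 genes and with BPIFB1 by 142. None of the other genes named as most like LTF or BPIFB1 fell as far as LTF and BPIFB1. CPD stood at −0.34 and −0.43 in replicate 3 of FLX and SUN, SYTL2 at −0.69 and −0.78, and VAC14 at −0.47 and −0.77.

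**Figure D4:**
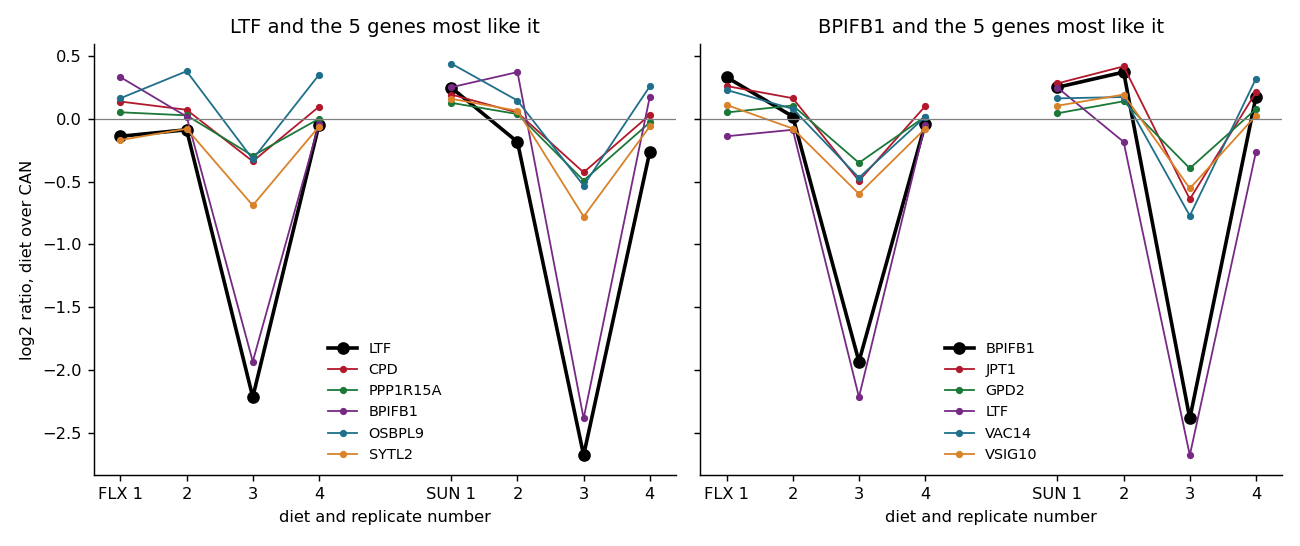
Log2 ratio of the diet sample over its CAN sample (vertical axis) in the 8 replicates (horizontal axis, FLX 1 to 4, then SUN 1 to 4) for LTF (left) and BPIFB1 (right), in black, with the 5 genes of highest Pearson correlation to each. All lines dip in replicate 3 of both diets, and LTF and BPIFB1 dip to between −1.93 and −2.68 while the others lie at −0.78 or above.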

How the data were processed

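The deposited table held the authors' normalised log2 ratio of each probe on each 2-colour array. That the logarithm has base 2 is an assumption, and how arrays were scaled and centred is not given in the sources used here. Depth has no meaning for arrays, and the number of replicates limits the precision. Array medians ran from −0.0139 to 0.00947. Per the labels, dyes were exchanged on the second array of each replicate. All 16 columns were used, and arrays were turned to diet over CAN before dye pairs were averaged (n = 4 per diet). Once turned, the arrays of a pair correlated at 0.165 to 0.616 over probes. Arrays of 1 dye orientation within a diet correlated at −0.224 or above.

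Of 43794 probes, 21790 carried 1 symbol and 22004 none, and 1524 old symbols, such as LPLUNC1 for BPIFB1, were updated through a RefSeq gene table (ARS-UCD2.0), from which only names and gene order were taken. Gene values are means of a gene's probes. All 3 comparisons came from a single fit of all probes with limma's lmFit and eBayes (residual degrees of freedom 6, prior 2.32), with Benjamini-Hochberg adjustment and a threshold of 0.05, two-sided. The fit was also run on simulated data with independent replicates, which lack the link between replicates that share a CAN label. List genes were read from the same model on gene values. Same-numbered FLX and SUN replicates deviated together from their diet means (r = 0.421, 0.576, 0.537 and 0.41), so the fit within replicate numbers is given beside FLX vs SUN, with no test of LTF and BPIFB1 where replicate 3 enters.

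The members and gene lists were chosen with earlier results of these data known. Named genes were all members, the 5 genes most correlated with LTF and with BPIFB1, up to 3 genes of smallest p per list and diet (for lists of other cells and of receptors, those of them under an unadjusted p of 0.05), and every neutrophil granule gene in replicate 3. Other genes named for their size in replicate 3 were chosen after their values were seen, as was the 1.5-fold size rule. R 4.3.3, limma 3.58.1, statmod 1.5.0, Python 3.11.15, numpy 2.4.6, pandas 2.3.3, scipy 1.17.1 and matplotlib 3.10.9 were used.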

Additional observations from a re-analysis of the deposited data

Results flagged for a closer look

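Each member probe was examined in each diet for 1 replicate lying far from the other 3 of its group, 22 groups in all, and 5 held such a value. Of these, 3 are LTF or BPIFB1 in replicate 3, which the choice of genes fixed. Among the other 9 probes, 2 of 18 groups held such a value, where chance gives 1 in 20 for independent groups. These groups are not independent, since FLX and SUN replicates share CAN labels and PIGR and SPP1 have several probes. Nothing is therefore read from this count. LTF stood out in FLX replicate 3 at −2.21, and BPIFB1 in FLX replicate 3 at −1.93 and in SUN replicate 3 at −2.38. LTF in SUN replicate 3, at −2.68, came just short of the critical value of the same rule. SPP1 stood out in FLX replicate 2 at −0.75 on the probe EMBV3_21535 only. SCGB1A1 stood out in FLX replicate 2 at 0.11, a small ratio in a group whose other 3 values lay between 0.018 and 0.031.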

How the results depend on the processing

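No member probe other than LTF and BPIFB1, which are left out of this count, passed an adjusted p of 0.05 in limma among 160 values from refits under the alternatives (lowest 0.34). Over all probes, 1 passed in FLX and 2 in SUN with the diet sample in Cy3 only, and in SUN 2 without SUN replicate 3 and 0 without any other replicate. The share at an unadjusted p under 0.05 was 12.0%, 14.7% and 4.66% (FLX, SUN, FLX vs SUN) with the diet sample in Cy5 only, 6.97%, 14.0% and 4.48% in Cy3 only, 4.4% in FLX with arrays scaled to one spread, and 10.8% in SUN without replicate 3. For FLX vs SUN it was 5.31% and 4.84% with the replicate block fixed or random and 3.28% with slide as a random block. With 1 replicate left out the SUN share ran from 4.19% (without SUN 2) to 10.6% (without SUN 3) and the FLX vs SUN share from 1.86% to 4.74% (without SUN 3).

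Several members changed sign. With the diet in Cy5 only, values were −0.0047 for OVGP1 and 0.44 for MUC1 in SUN (−0.53 for MUC1 in Cy3 only), −0.092 for LTF in FLX vs SUN, and −0.076 for PIGR in FLX (0.098 in Cy3 only). With it in Cy3 only they were 0.078 for OVGP1 and −0.024 for SCGB1A1 in FLX, 0.0059 for LCN2 and 0.020 for SCGB1A1 in SUN, and 0.15 for MUC1 and 0.051 for BPIFB1 in FLX vs SUN. Scaling gave 0.018 for BPIFB1 in FLX vs SUN. Without replicate 3 of both diets, chosen after seeing the data, OVGP1 in FLX had 0.044, MUC1 and LCN2 in SUN 0.28 and 0.0074, and LTF in FLX vs SUN −0.025. The causes were not tested. With 1 replicate left out in turn, FLX vs SUN ran from −0.56 (without SUN 3) to 0.63 (without FLX 3) for LTF, from −0.67 to 0.50 for BPIFB1 and from −0.48 to 0.042 for MUC1. In SUN the ranges were −0.23 to 0.28 for MUC1, −0.14 to 0.0074 for LCN2, −0.052 to 0.055 for SCGB1A1, −0.045 to 0.075 for SPP1 probe EMBV3_13836 and −0.30 to 0.014 for EMBV3_21535. In FLX they were −0.062 to 0.044 for OVGP1 and −0.23 to 0.054 for SPP1 probe EMBV3_21535, whose sign turned in each diet without replicate 2.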

Other observations

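Genes next to LTF and BPIFB1 in the bovine gene table did not share their replicate 3 values as a group. Beside LTF, the measured neighbours CCRL2 and CCR2, both chemokine receptor genes, stood at −0.022 and −0.0086 in FLX replicate 3 and at −0.084 and 0.050 in SUN replicate 3. On the other side RTP3 had 0.26 and 0.56 and LRRC2 −0.091 and −0.27, while CRIPTO, a Nodal co-receptor of the epiblast, had −1.11 and −1.18 and also −0.90 in FLX replicate 1. Beside BPIFB1, the family member BPIFA1 had 0.22 and −0.84 and CDK5RAP1 0.22 and 0.19. These neighbours were read after the LTF and BPIFB1 values were known, and the comparison is a description with no test.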
